A study of Mus musculus with 30 samples.

Results

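Oxidative phosphorylation genes were examined in mouse embryonic stem (ES) cells passing through a retinoic acid time course. The members were the genes whose symbol starts with Ndufa, Ndufb, Ndufc, Ndufs, Ndufv, Sdha to Sdhd, Uqcr, Cox4i to Cox8 or Atp5, measured on an Affymetrix array by probe sets that carry a single gene symbol. Each gene was represented by its probe set with the highest mean over all 30 arrays. The rule found 94 of the 18193 genes tested. Of these, 80 encode subunits: 35 of complex I, 4 of complex II, 8 of complex III, 16 of complex IV and 17 of complex V. The names also took in 12 assembly factors (Ndufaf1 to Ndufaf8 and Sdhaf1 to Sdhaf4) and 2 related proteins, Ndufa4l2 and Cox7a2l. These 14 genes are described apart from the subunits. Ndufa4 was kept with complex I by its name, although its protein is now placed in complex IV.

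Oxidative phosphorylation is the way mitochondria turn the electrons of NADH and succinate into ATP. Complexes I and II pass electrons to ubiquinone, complex III passes them on to cytochrome c, complex IV gives them to oxygen, and complex V, the ATP synthase, uses the proton gradient so formed. Pluripotent stem cells are known for leaning on glycolysis, and many differentiated cells for relying more on respiration. The subunits encoded in mitochondrial DNA have other names and lie outside the rule.

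The cells were of the KH2 line, a mouse ES cell line grown on feeder fibroblasts, and each group had 3 arrays. The 8 h group is labelled baseline, and the groups at 12, 16, 24, 36, 48, 60 and 72 h are labelled retinoic acid, given at 0.3 µM in differentiation medium according to a protocol text that describes shorter treatments. The 12 h and 24 h times were each sampled a second time, as replicates D to F beside A to C. Before RNA was taken, cells were trypsinised and replated for 30 min, which is a way to let feeder cells attach. One protocol text says that the cells bound to the plate were kept and another that the cells left in the medium were pelleted, so the share of feeder RNA is not known. KH2 is one line, no untreated culture was sampled at the later times, and nothing in the labels says that replicates came from separate cultures. The p-values therefore measure the spread between these arrays, which may be technical.

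The arrays fell into 2 sets by their spiked-in controls. The difference between the BioDn and BioC control probe sets ran from 0.99 to 1.07 (log2) on the 8 h, 12 h A-C, 16 h and 24 h A-C arrays, called the first array set here. It ran from 1.34 to 1.63 on the 12 h D-F, 24 h D-F and 36 to 72 h arrays, called the second. Changes were therefore read within a set, from 8 h to 24 h A-C in the first and from 12 h D-F to 72 h in the second. All levels are deposited log2 values, and all changes are differences of log2 values. A gene is called higher or lower when the limma test adjusted over all 18193 genes (Benjamini-Hochberg) was under 0.05. ES cell markers were present at 8 h, with a mean over the 12 listed genes of 12.28 to 12.36 per array. This mean was lowest at 60 h, at 10.19 to 10.33, and stood at 10.66 to 10.94 at 72 h. From 60 h to 72 h 8 of the 12 markers rose and 1 fell, where 8.54% of all genes rose and 2.67% fell. The mean over 18 fibroblast markers was 8.32 to 9.05 on the 12 h D-F arrays, 9.26 to 9.79 at 36 h, 10.32 to 11.33 at 48 h, 9.93 to 10.64 at 60 h and 10.31 to 11.12 at 72 h. Fibroblast marker levels were thus higher from 36 h on than at 12 h D-F. From 48 h to 60 h 4 of the 18 markers fell and 2 rose, and the part of these levels in the results below was not tested. In RNA from whole cultures, fewer cells of a type and less RNA per cell cannot be told apart.

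As a group the respiratory chain genes moved less than genes at large. From 8 h to 24 h A-C, 13 of the 94 rose and 15 fell, and the other 66 were not called. Over all genes 39.3% were called, 23.5% higher and 15.8% lower. From 12 h D-F to 72 h, 12 rose and 34 fell, against 60.6% of all genes called, 26.2% higher and 34.5% lower. The median size of change, taken without its sign, was 0.09 for the 94 genes and 0.18 for all genes at 24 h, and 0.13 and 0.28 at 72 h. The share of the 94 genes called was thus below the background in both comparisons (29.8% and 48.9%), and their median change in size was smaller. The 94 genes are also brighter, with a median level of 12.14 at 8 h against 7.58 for all genes. No background of equal level was used, so the part of level in these differences was not tested. A change of 1 log2 unit or more at 72 h, whether called or not, was found in 1 of the 94 genes, Ndufa4l2, and in 9.56% of all genes. In each array set a limma F test asked whether a gene changed at any time. It called 44.7% of the 94 genes in the first set and 59.6% in the second, where 55.5% and 67.1% of all genes were called.

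**Figure D1:**
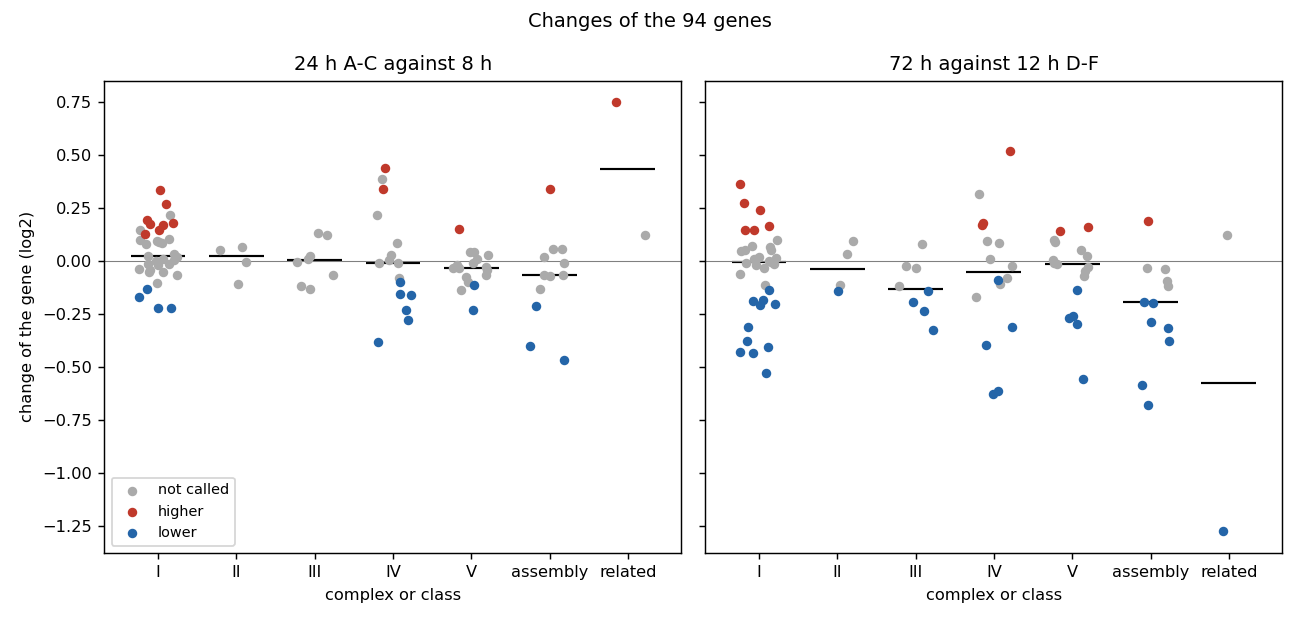
Change of each of the 94 genes (log2, y axis) by complex or class (x axis) at 24 h A-C against 8 h (left) and at 72 h against 12 h D-F (right). Each point is 1 gene, coloured by its limma call, and the bars are medians. Most points lie within 0.25 of 0, and the single point below -1 is Ndufa4l2 at 72 h.

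Of the 94 genes, 10 fell in both comparisons (10.6%, against 11.1% of all genes), 5 rose in both (5.32% against 14.7%), 2 rose at 24 h and fell at 72 h (2.13% against 3.35%), and 37 were called in neither (39.4% against 30.1%). The share that fell in both was thus near that of all genes. The arrays of the 2 comparisons are separate, though the spread was estimated from all groups together.

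At 24 h A-C against 8 h, complex I had 8 of 35 genes higher and 4 lower (median 0.02), complex IV 2 of 16 higher and 6 lower (median -0.01), and complex V 1 of 17 higher and 2 lower (median -0.03). None of the 4 complex II genes and none of the 8 complex III genes was called. Over all genes the median change was -0.02. At 72 h against 12 h D-F, the counts were 6 higher and 11 lower in complex I (median -0.00), 0 and 1 in complex II (median -0.04), 0 and 4 in complex III (median -0.13), 3 and 5 in complex IV (median -0.05), and 2 and 5 in complex V (median -0.01). The median of all genes was -0.09. The complex III median lay below that of all genes at 72 h, and that of the assembly factors was -0.19. The complex III median was -0.083 with the arrays quantile normalised again, -0.087 without 12 h D-F E and -0.082 without 72 h A. With probe sets that can bind several transcripts left out it was -0.27. The median of all genes was not computed under these choices, so the place of complex III relative to it is known for the main fit only. Over the alternatives the complex II median ran from -0.11 to 0.0026 and the complex IV median from -0.098 to -0.0055. No difference between complexes was tested.

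**Figure D2:**
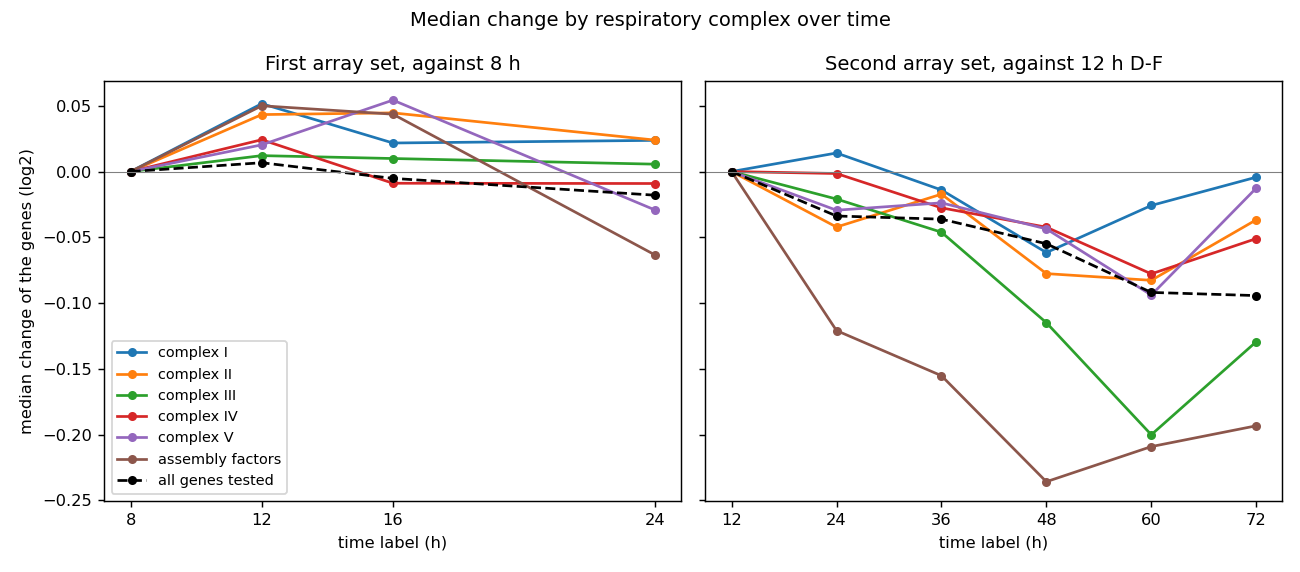
Median change (log2, y axis) of the genes of each complex, of the 12 assembly factors and of all genes tested against the time label in hours (x axis), in the first array set against 8 h (left) and in the second against 12 h D-F (right). In the second set the assembly factors reach -0.24 at 48 h and complex III reaches -0.20 at 60 h, while complexes I, II, IV and V stay between -0.09 and 0.01.

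In the first array set, 6 of the 94 genes were higher and 3 lower at 12 h A-C than at 8 h, where 12.9% of all genes were higher and 6.67% lower. At 16 h against 8 h, 19 were higher and 12 lower, against 25.6% and 17.9% of all genes. Between 12 h A-C and 16 h, 4 rose and 7 fell (12.4% and 9.5% of all genes), and between 16 h and 24 h A-C 11 rose and 16 fell (17.4% and 16.9%). Taking both directions, the share called among the 94 genes was below that of all genes in each of these 4 comparisons (9.57% against 19.5%, 33% against 43.5%, 11.7% against 21.9% and 28.7% against 34.4%). The second array set shows when the later calls appeared. Against 12 h D-F, 6 of the 94 genes were higher and 13 lower at 24 h D-F, where 16% of all genes were higher and 14.8% lower (30.8% called). At 36 h 9 were higher and 21 lower (23.1% and 21.4% of all genes, 44.5% called). At 48 h the counts were 6 and 33 (22.4% and 27.2%, 49.7% called), and at 60 h 8 and 43 (23.6% and 33.6%, 57.2% called). Taking both directions, 20.2%, 31.9%, 41.5% and 54.3% of the 94 genes were called at these 4 times. Higher calls were a smaller share of the 94 genes than of all genes at each time. Lower calls were near the share of all genes at 24 h D-F and 36 h and a larger share at 48 h and 60 h. These shares were not tested against each other. The count of lower genes was largest at 60 h, where complex III had 6 of 8 genes lower and complex I 12 of 35. Between neighbouring times, 1 of the 94 genes rose and 6 fell from 24 h D-F to 36 h (8.84% and 4.79% of all genes). From 36 h to 48 h 1 rose and 7 fell (7.59% and 14.5%), and from 48 h to 60 h 2 rose and 7 fell (9.37% and 13.8%, 23.2% called). From 60 h to 72 h, 5 of the 94 genes rose (5.32%) and 0 fell, where 8.54% of all genes rose and 2.67% fell. The share that rose was thus below that of all genes. Against 12 h D-F, 43 of the 94 were lower at 60 h and 34 at 72 h. Over the 5 times, 9 of the 94 genes were lower at every time, 2 were higher at every time and 33 were never called. These counts over several times were not made for all genes, so they have no background here. The 2 genes higher at every time were Ndufb7 and Ndufb11, both accessory subunits of complex I.

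Complex I takes electrons from NADH, and its catalytic core holds the flavin and the iron-sulfur clusters that lead them to ubiquinone. The rule covers 6 nuclear-encoded core subunits. Of these 6, 4 fell from 12 h D-F to 72 h and 0 rose (median -0.34), while of the 29 accessory subunits 7 fell and 6 rose (median 0.01). Over the same interval 34.5% of all genes fell and 26.2% rose (median -0.09). The split into core and accessory subunits was made after the values were seen, so these counts are a description.

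Ndufs1, the largest iron-sulfur subunit, read 11.95, 12.09 and 11.89 on the 12 h D-F arrays and 11.55, 11.58 and 11.53 at 72 h. All 72 h arrays lay below all 12 h D-F arrays, a fall by 0.43 (SE 0.05, limma adjusted p = 4.15e-08). The means of Ndufs1 between these times were 11.83 ± 0.06 at 24 h D-F, 11.68 ± 0.04 at 36 h, 11.60 ± 0.05 at 48 h and 11.39 ± 0.03 at 60 h (SD, n = 3). The gene thus stood lower at each time up to 60 h, and from 60 h to 72 h it rose by 0.16 (limma adjusted p = 0.0328).

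Ndufv1, which binds NADH and the flavin, read 11.91, 11.90 and 11.87 at 12 h D-F and 11.42, 11.57 and 11.56 at 72 h, a fall by 0.37 (SE 0.05, limma adjusted p = 1.15e-06). It had also fallen in the first array set, by 0.17 from 8 h to 24 h A-C (limma adjusted p = 0.0141), from 11.90, 11.89 and 11.81 to 11.73, 11.66 and 11.71. Neither pair of groups overlapped. The first-set call was lost without 8 h A, 8 h B or 24 h A-C B, with changes of -0.20 to -0.14 over the arrays left out in turn.

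Ndufs7 and Ndufs8 carry the clusters closest to ubiquinone. Ndufs7 read 11.67, 11.78 and 11.63 at 12 h D-F and 11.22, 11.36 and 11.28 at 72 h, a fall by 0.41 (SE 0.06, limma adjusted p = 4.33e-06). Ndufs8 read 12.31, 12.34 and 12.31 against 11.93, 12.09 and 12.01, a fall by 0.31 (SE 0.06, limma adjusted p = 9.18e-05). For both genes the groups did not overlap. Both were also lower at 36 h, 48 h and 60 h than at 12 h D-F, and neither was called at 24 h in either array set. The 36 h call of Ndufs8 was lost without 12 h D-F D, 12 h D-F E or 36 h A (changes -0.17, -0.16 and -0.14).

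The other 2 core genes were not called at 72 h. Ndufs3, a core subunit of the arm that reaches into the matrix, read 12.08, 12.09 and 12.05 at 12 h D-F and 11.99, 12.07 and 12.07 at 72 h. Ndufv2, the partner of Ndufv1, read 12.78, 12.84 and 12.71 against 12.79, 12.80 and 12.76. The groups of both genes overlapped, with changes of -0.03 and 0.01. Of the 5 times in the second set, Ndufs3 was lower at 48 h, and Ndufv2 was not called at any.

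**Figure D3:**
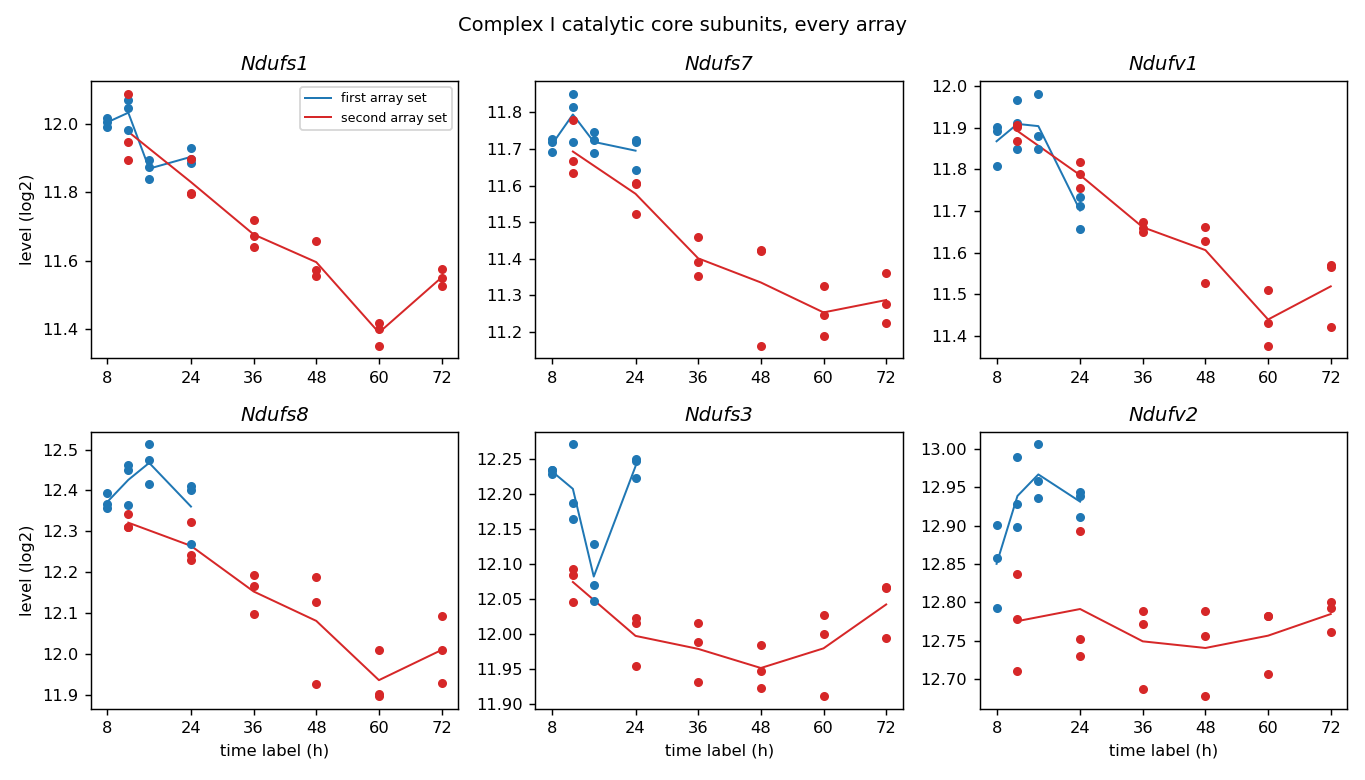
Level (log2, y axis) of the 6 core subunits of complex I on each array against the time label in hours (x axis). Points are arrays and lines join the group means, in blue for the first array set and in red for the second. The means of Ndufs1, Ndufs7, Ndufv1 and Ndufs8 lie lower from 36 h on than at 12 h D-F, and at 72 h those of Ndufs3 and Ndufv2 lie within 0.03 of their 12 h D-F means.

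Accessory subunits surround this core and moved both ways. Ndufb11, a subunit of the membrane arm, rose the most at 24 h among complex I subunits, from 12.60, 12.64 and 12.64 at 8 h to 12.99, 12.92 and 12.99 at 24 h A-C (change 0.34, SE 0.06, limma adjusted p = 4.85e-05). On the later arrays Ndufb11 read 12.45, 12.46 and 12.48 at 12 h D-F and 12.67, 12.74 and 12.69 at 72 h (change 0.24, limma adjusted p = 0.000957). Both pairs of groups were apart. The call at 72 h was lost when probe set types that can bind several transcripts were left out, and both calls were lost when the arrays of a time were pooled over the sets.

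Among complex I subunits Ndufa12 showed the largest rise at 72 h, from 12.17, 12.17 and 12.22 at 12 h D-F to 12.55, 12.56 and 12.54 (change 0.37, SE 0.06, limma adjusted p = 2.98e-06). Its 8 h and 24 h A-C arrays lay between 12.25 and 12.33 and were not called. The call was lost when probe set types that can bind several transcripts were left out. Ndufa3 (0.28), Ndufa13 (0.15), Ndufb7 (0.17) and Ndufb9 (0.15) also rose at 72 h, and the call of Ndufb9 was lost without 12 h D-F F (0.10) or 72 h C. Another, dimmer probe set of Ndufa3 was called in the opposite direction, so the probe sets of that gene did not all move the same way.

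Ndufb1 fell the most among the complex I subunits at 72 h. It read 8.18, 8.41 and 7.94 at 12 h D-F, 7.02, 7.04 and 7.57 at 60 h, and 7.68, 7.59 and 7.69 at 72 h, a fall by 0.52 from 12 h D-F to 72 h (SE 0.12, limma adjusted p = 0.000377). The 12 h D-F arrays lay above all later ones, and the 60 h C array stood apart from the other 60 h arrays. Ndufb10 fell from 11.05, 10.99 and 10.93 to 10.55, 10.57 and 10.56 (change -0.43, limma adjusted p = 7.38e-07), and it also fell in the first set, by 0.22 (limma adjusted p = 0.00466). Among complex I subunits Ndufa5 had the largest fall in the first set, from 10.80, 10.78 and 10.81 at 8 h to 10.63, 10.54 and 10.57 at 24 h A-C (change -0.22, limma adjusted p = 0.00451), with a lower mean of 10.40 at 16 h between them. In the first set Ndufv3 (0.27), Ndufa13 (0.19), Ndufa3 (0.18), Ndufa2 (0.18), Ndufs4 (0.17), Ndufc2 (0.15) and Ndufb7 (0.13) rose besides Ndufb11, and Ndufb6 fell (-0.13). Leaving out 1 array ended the calls of Ndufc2 and Ndufb7 in 5 of 6 fits each, of Ndufb6 in 3, of Ndufs4 in 2 (8 h A, 24 h A-C C) and of Ndufv3 in 1 (8 h B). Those of Ndufc2 and Ndufb7 were kept only without 24 h A-C C and without 24 h A-C B, respectively, and that of Ndufb6 was lost without 8 h C, 24 h A-C B or 24 h A-C C. The remaining accessory subunits that fell at 72 h were Ndufa7 (-0.21), Ndufb3 (-0.20), Ndufa9 (-0.18), Ndufab1 (-0.18) and Ndufb2 (-0.14). The call of Ndufb2 was lost without 12 h D-F D, 12 h D-F F or 72 h A (smallest change -0.09), that of Ndufab1 without 12 h D-F E or 72 h A and in 4 alternatives, and that of Ndufb3 without 12 h D-F D.

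Complex II links the citric acid cycle to the chain and has 4 genes here, of which 0 were called at 24 h and 1 at 72 h. Sdha, its flavoprotein, read 12.04, 12.07 and 11.99 at 12 h D-F and 11.88, 11.91 and 11.89 at 72 h, a fall by 0.14 (SE 0.04, limma adjusted p = 0.00807) with no overlap. The iron-sulfur subunit Sdhb and the membrane anchors Sdhc and Sdhd were not called at 72 h, with changes between -0.11 and 0.09. The call of Sdha was lost when the arrays were quantile normalised again and when the 2 groups were fitted alone.

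Complex III passes electrons from ubiquinol to cytochrome c. Uqcrc1, a core protein of the complex, read 12.91, 12.95 and 12.87 at 12 h D-F and 12.61, 12.58 and 12.57 at 72 h, a fall by 0.33 (SE 0.06, limma adjusted p = 3.18e-05). Every 72 h array of Uqcrc1 lay below every 12 h D-F array, and the gene was lower at all 5 later times. Uqcrq, a small subunit near the ubiquinone site, fell by 0.24, Uqcr11 by 0.19 and Uqcrfs1, the Rieske iron-sulfur protein, by 0.14. At 60 h Uqcr10 and Uqcrb were lower as well (-0.25 and -0.11), and the 2 genes of the complex never called in the second set were Uqcrc2 and Uqcrh. The 72 h calls of Uqcr11 and Uqcrfs1 were lost without 72 h A or 12 h D-F E, that of Uqcrfs1 also without 12 h D-F D, and that of Uqcrq without 72 h A.

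Cyc1, the cytochrome c1 subunit whose name lies outside the rule, fell by 0.38 from 12 h D-F to 72 h (limma adjusted p = 6.24e-07). Cycs, cytochrome c itself, fell by 0.23 (limma adjusted p = 0.0144). Cycs had also fallen from 8 h to 24 h A-C, by 0.26 (limma adjusted p = 0.0108), while Cyc1 had a change of -0.02 and was not called.

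Complex IV, cytochrome c oxidase, has nuclear subunits with broadly expressed forms and with forms known from muscle, testis or lung. Of the 9 broadly expressed subunits 0 rose and 4 fell at 24 h A-C against 8 h, and 2 rose and 2 fell at 72 h against 12 h D-F. Of all genes 23.5% rose and 15.8% fell in the first comparison, and 26.2% rose and 34.5% fell in the second. Cox7c, a small membrane subunit, fell in both. It read 8.94, 8.88 and 8.94 at 8 h and 8.69, 8.53 and 8.71 at 24 h A-C (change -0.28, limma adjusted p = 0.00544). It read 9.15, 9.22 and 9.09 at 12 h D-F and 8.49, 8.59 and 8.55 at 72 h (change -0.61, SE 0.08, limma adjusted p = 1.8e-07). Neither pair of groups overlapped, and the first call was lost when probe set types that can bind several transcripts were left out. Cox6a1 (0.17) and Cox6b1 (0.18) rose at 72 h, and Cox7a2 fell (-0.09). The 72 h call of Cox7a2 was lost in 5 of 10 alternatives and in 4 of the 6 fits without 1 array.

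Of the 7 restricted forms, 2 rose and 2 fell at 24 h (23.5% and 15.8% of all genes), and 1 rose and 3 fell at 72 h (26.2% and 34.5%). Cox7b2, a testis form, went opposite ways in the 2 sets. It rose from 5.53, 5.47 and 5.45 at 8 h to 5.92, 5.97 and 5.88 at 24 h A-C (change 0.44, SE 0.12, limma adjusted p = 0.00366). From 12 h D-F to 72 h it fell, from 5.79, 5.75 and 5.58 to 5.07, 5.09 and 5.10 (change -0.63, SE 0.12, limma adjusted p = 5.08e-05). The groups did not overlap in either case. These levels are close to the lower quartile of an array, which was 4.73 to 4.85, where the array separates levels poorly. Cox8b, a muscle form, was also dim. It fell from 6.10, 6.33 and 6.18 at 8 h to 6.00, 5.71 and 5.77 at 24 h A-C (change -0.38, limma adjusted p = 0.000982) and by 0.40 from 12 h D-F to 72 h (limma adjusted p = 0.000312).

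Cox6a2, a muscle form, was the 1 gene of the 94 called at 24 h with overlapping groups. It read 7.99, 7.73 and 7.59 at 8 h and 8.18, 7.97 and 8.18 at 24 h A-C (change 0.34, limma adjusted p = 0.0357), and the call was lost in 4 of the 6 fits without 1 array.

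Cox6b2, a testis form of the subunit that faces cytochrome c, had the largest rise among complex IV genes at 72 h. It read 9.70, 9.79 and 9.83 at 12 h D-F and 10.39, 10.30 and 10.21 at 72 h (change 0.52, SE 0.18, limma adjusted p = 0.0177). Between these times the Cox6b2 arrays read 10.54, 10.40 and 9.89 at 36 h, 9.78, 9.79 and 9.81 at 48 h, and 11.08, 10.56 and 9.88 at 60 h. The gene was thus at its 12 h D-F level again at 48 h, and replicate C lay lowest of its group at 36 h and at 60 h. The 72 h call was lost without 12 h D-F D or 72 h A (lowest change 0.48). Among the 8 germ cell markers listed, 1 rose and 4 fell from 12 h D-F to 72 h, and among 10 muscle markers 3 rose and 5 fell. Of all genes 26.2% rose and 34.5% fell, and a relation of these markers to Cox6b2 was not tested.

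Cox7a1, a muscle form, rose in the first set from 8.73, 8.59 and 8.85 at 8 h to 9.46, 9.40 and 9.41 at 16 h (change 0.70, limma adjusted p = 0.000989). At 24 h A-C it read 9.22, 8.97 and 9.14. Its groups at 8 h and 16 h did not overlap. Cox7a1 was not called at any time against 12 h D-F; it was called without 36 h C (0.45) and without 60 h C (0.39).

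Ndufa4l2, a paralogue of Ndufa4 known as a gene induced by hypoxia, moved more than any other gene of the 94. In the first set it read 10.43, 10.58 and 10.79 at 8 h, 11.35, 11.49 and 11.44 at 12 h A-C, 11.82, 11.72 and 11.89 at 16 h, and 11.43, 11.32 and 11.30 at 24 h A-C. The rise from 8 h to 16 h was 1.21 (SE 0.27, limma adjusted p = 0.00076), and that from 8 h to 24 h A-C was 0.75 (limma adjusted p = 0.0316). No array of the later groups was as low as the 8 h arrays. The 24 h call was lost without any one of 8 h A, 8 h B or the 3 24 h A-C arrays (changes 0.66 to 0.85 over the arrays left out).

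In the second set Ndufa4l2 read 8.78, 8.87 and 9.41 at 12 h D-F, 10.55, 10.66 and 10.01 at 24 h D-F, and 10.20, 10.22 and 9.06 at 36 h. It then read 7.76, 7.84 and 7.53 at 48 h, 8.85, 8.57 and 7.44 at 60 h, and 7.72, 7.81 and 7.71 at 72 h. The gene thus rose to 24 h, by 1.39 (limma adjusted p = 0.000336), and from 36 h to 48 h it fell by 2.12 (SE 0.27, limma adjusted p = 4.85e-06) with no overlap. Among the 18193 genes no other had a larger fall over this interval. Without 36 h C the change was -2.50. From 12 h D-F to 72 h the change was -1.27 (SE 0.27, limma adjusted p = 0.000273). Replicate C stood apart at 36 h and at 60 h: without 60 h C the 60 h change was -0.31 and not called, against -0.73 and called with it. The 60 h call was also lost without 12 h D-F F (change -0.53).

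Ndufa4 itself read 13.13, 13.24 and 13.08 at 12 h D-F and 13.20, 13.28 and 13.26 at 72 h and was not called. From 36 h to 48 h, 17 of 21 measured genes of glycolysis and lactate handling fell and 0 rose (median -0.31), where 14.5% of all genes fell and 7.59% rose. Among the 17 was Aldoc (-1.62), a brain form of aldolase named after its value was seen. Over the same interval 16 of the 18 fibroblast markers rose (median 1.26). Between 12 h and 24 h D-F, when Ndufa4l2 rose, 10 glycolysis genes rose and 0 fell (16% and 14.8% of all genes), and 4 of the 18 fibroblast markers rose. From 48 h to 60 h 7 glycolysis genes rose and 0 fell (9.37% and 13.8% of all genes). The Ndufa4l2 change over that interval was 0.58 and was not called with the replicate letter as a block (limma adjusted p = 0.136). The glycolysis list was not tested as a set.

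**Figure D4:**
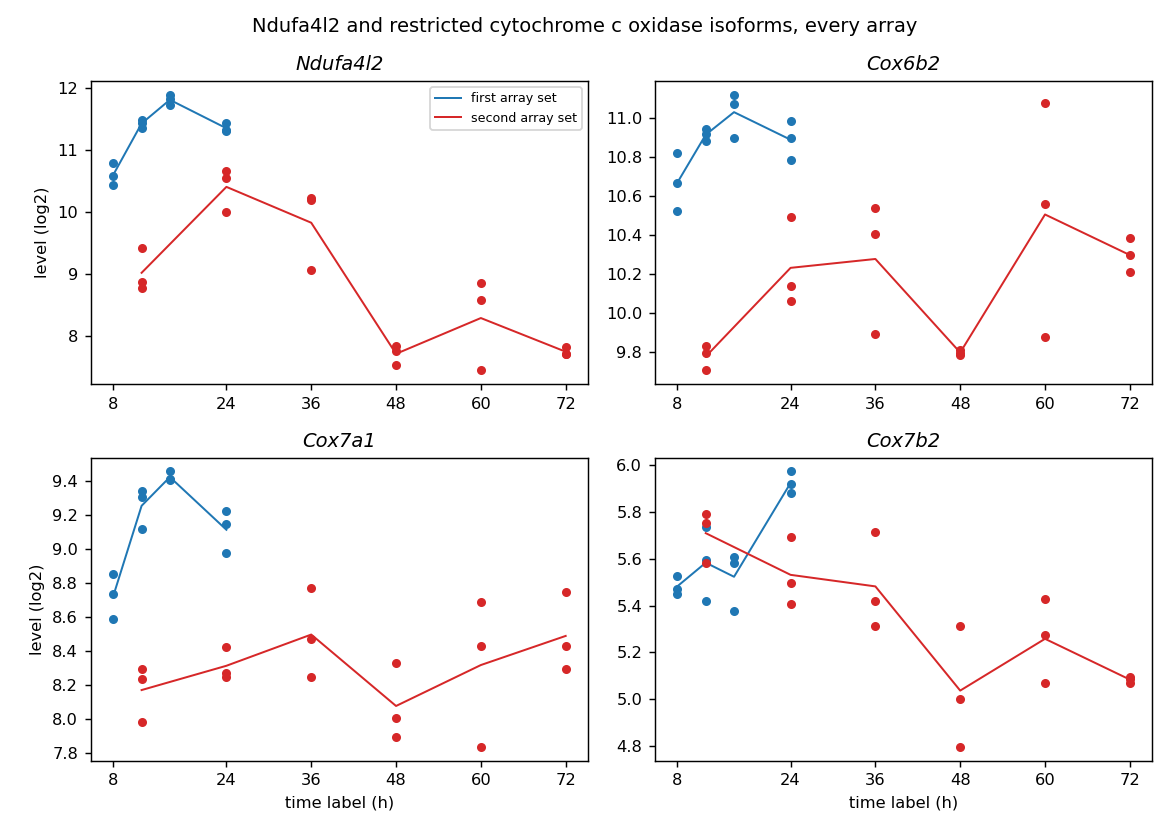
Level (log2, y axis) of Ndufa4l2 and of 3 restricted cytochrome c oxidase forms on each array against the time label in hours (x axis). Points are arrays and lines join group means, in blue for the first array set and in red for the second. Ndufa4l2 falls between 36 h and 48 h by 2.12, and Ndufa4l2, Cox6b2 and Cox7a1 lie lower in the second set than in the first at 12 h and 24 h.

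Complex V joins a catalytic F1 head to a membrane part whose ring of c subunits turns with the proton flow. In the F1 head 3 of 5 genes fell and 1 rose from 12 h D-F to 72 h, where 34.5% of all genes fell and 26.2% rose. Atp5a1, the alpha subunit, read 13.63, 13.71 and 13.61 and then 13.37, 13.36 and 13.33 (change -0.30, SE 0.05, limma adjusted p = 9.66e-06). The groups did not overlap, and the call was lost when all probe sets of the gene were averaged. Atp5e, the epsilon subunit, fell by 0.27 and Atp5b, the beta subunit, by 0.13. Atp5c1, the gamma subunit, was called higher (0.14), but a second probe set was called lower, and with the mean of its probe sets the change was -0.11. In the stalk and membrane part, Atp5l fell (-0.26), and Atp5md rose from 11.03, 11.09 and 10.93 to 11.09, 11.17 and 11.28 (change 0.16, limma adjusted p = 0.0144). The highest 12 h D-F array and the lowest 72 h array of Atp5md both read 11.09 after rounding, and the call was lost without 12 h D-F F or 72 h C.

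The c subunit is encoded by Atp5g1, Atp5g2 and Atp5g3, whose mature protein is the same. From 8 h to 24 h A-C, Atp5g1 fell and Atp5g2 rose. Atp5g1 read 12.15, 12.18 and 12.10 at 8 h and 11.97, 11.80 and 11.97 at 24 h A-C (change -0.23, SE 0.07, limma adjusted p = 0.0143). Atp5g2 read 13.07, 12.93 and 13.00 and then 13.19, 13.11 and 13.15 (change 0.15, SE 0.06, limma adjusted p = 0.0425). Neither pair of groups overlapped. Atp5g3 was not called (-0.06).

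In the second set Atp5g1 read 12.42, 12.42 and 12.29 at 12 h D-F, 11.47, 11.53 and 11.69 at 60 h, and 11.72, 11.84 and 11.90 at 72 h. It fell by 0.81 to 60 h (limma adjusted p = 6.5e-10) and the change to 72 h was -0.56 (SE 0.07, limma adjusted p = 3.75e-07). It was lower at all 5 later times with no overlap at 72 h. Atp5g2 (-0.05) and Atp5g3 (0.05) were not called at 72 h. The Atp5g1 probe set is of a type that can bind several transcripts of a gene. Its only other probe set is dim and was not called, and with that one in its place the changes were 0.37 at 24 h and 0.21 at 72 h, so the falls of Atp5g1 rest on 1 probe set. Without 8 h B or 24 h A-C B the 24 h call of Atp5g1 was lost, and that of Atp5g2 was lost without 8 h B, 8 h C, 24 h A-C A or 24 h A-C C (changes 0.12 to 0.19).

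The sequences before the start of the 3 c-subunit genes are shown because these genes share a mature protein and moved differently. That of Ndufaf4, 1 of the 10 genes that fell in both comparisons, is shown as an example. Each run is the 250 bases upstream of the RefSeq gene start (build GRCm38.p6), written 5′ to 3′ on the gene's strand. Capitals mark a match on either strand to the NRF1 palindrome, whose letters are those in capitals in the Atp5g2 sequence and read the same on both strands, or to the ERR word CAAGGTCA, which reads TGACCTTG on the other strand. NRF1 and the estrogen-related receptors (ERR) are transcription factors known for acting on respiratory chain genes. The windows are chr11:96075632-96075881 (minus strand) for Atp5g1, chr15:102671048-102671297 (minus) for Atp5g2, chr2:73911327-73911576 (minus) for Atp5g3 and chr4:24897833-24898082 (plus) for Ndufaf4.
Atp5g1: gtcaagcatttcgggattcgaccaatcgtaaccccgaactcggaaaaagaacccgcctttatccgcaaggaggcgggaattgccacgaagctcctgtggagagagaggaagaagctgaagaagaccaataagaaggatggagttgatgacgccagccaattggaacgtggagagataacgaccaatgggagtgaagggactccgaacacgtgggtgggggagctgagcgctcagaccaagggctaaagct
Atp5g2: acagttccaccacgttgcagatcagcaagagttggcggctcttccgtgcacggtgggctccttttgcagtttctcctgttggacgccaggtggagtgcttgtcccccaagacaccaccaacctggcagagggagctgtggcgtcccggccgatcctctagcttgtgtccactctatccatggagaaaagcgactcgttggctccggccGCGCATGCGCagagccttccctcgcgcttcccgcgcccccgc
Atp5g3: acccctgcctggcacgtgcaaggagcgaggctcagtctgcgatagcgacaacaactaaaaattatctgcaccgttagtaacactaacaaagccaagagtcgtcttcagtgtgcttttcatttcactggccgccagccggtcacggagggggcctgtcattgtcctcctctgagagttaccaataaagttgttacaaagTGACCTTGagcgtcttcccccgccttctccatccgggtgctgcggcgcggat
Ndufaf4: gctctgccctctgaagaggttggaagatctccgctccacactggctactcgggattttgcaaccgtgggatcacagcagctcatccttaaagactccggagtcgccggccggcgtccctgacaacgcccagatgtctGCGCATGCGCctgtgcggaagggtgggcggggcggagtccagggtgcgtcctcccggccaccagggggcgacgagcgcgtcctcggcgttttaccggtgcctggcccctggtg
The Atp5g2 and Ndufaf4 windows held an NRF1 match, the Atp5g3 window held an ERR match on the other strand, and the Atp5g1 window held neither. RefSeq windows were found for 78 of the 94 genes. The NRF1 word occurred in 4 of these 78 (5.13%; Atp5g2, Atp5k, Cox6a1 and Ndufaf4) and in 0.781% of all 27025 promoter windows. The ERR word occurred in 3 (3.85%; Atp5g3, Atp5l and Ndufs5) and in 1.31% of all. The ETS word CCGGAAGT, bound by GABP, occurred in 3 (3.85%; Atp5h, Uqcr11 and Uqcrh) and in 2.93% of all, and the YY1 word AAGATGGCG in 0, against 0.607% of all. No window held matches to more than 1 of these words, so no matches overlapped. A match is a description of these letters, and no match says only that they are not in this window. The genes with an NRF1 match did not share a direction at 72 h: Ndufaf4 fell, Cox6a1 rose, and Atp5g2 and Atp5k were not called.

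**Figure D5:**
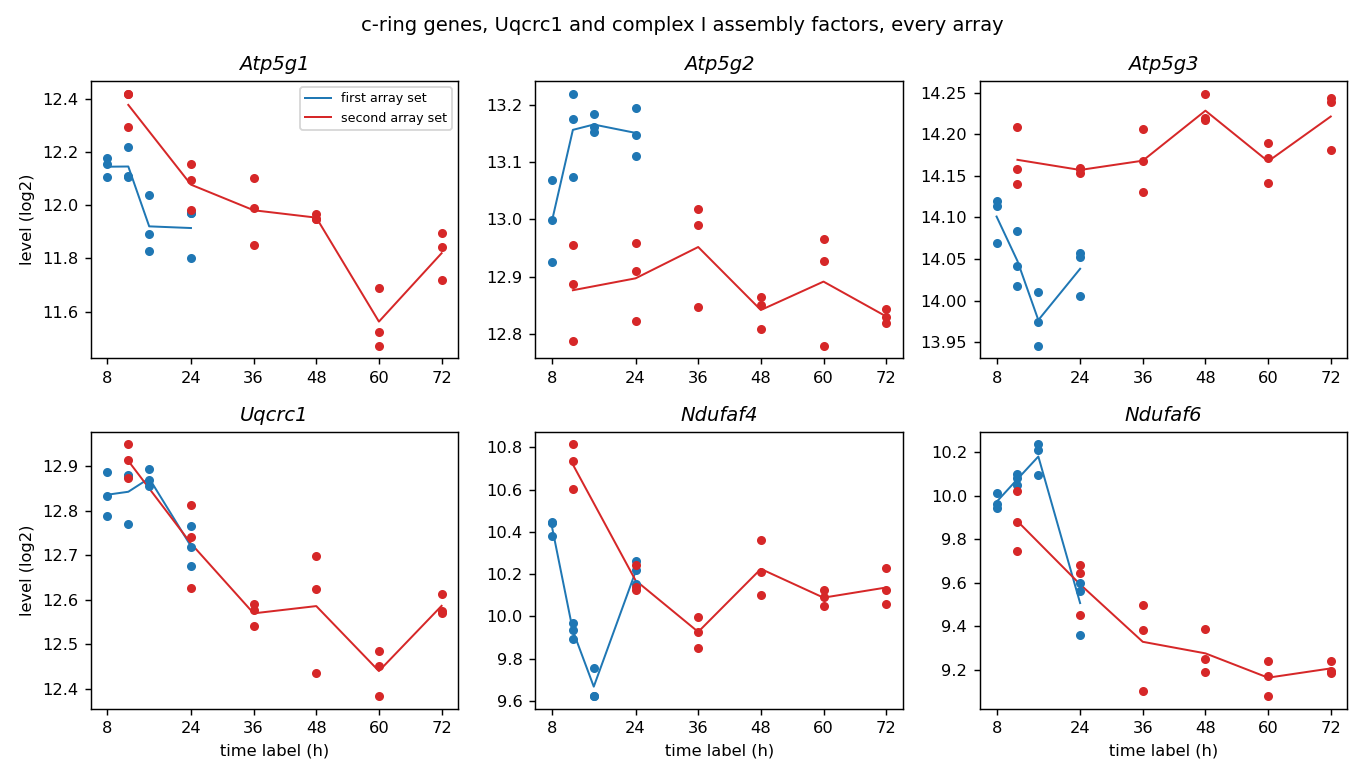
Level (log2, y axis) of the 3 c-subunit genes, Uqcrc1 and the assembly factors Ndufaf4 and Ndufaf6 on each array against the time label in hours (x axis). Points are arrays and lines join group means, in blue for the first array set and in red for the second. Atp5g1 goes from 12.38 at 12 h D-F to 11.56 at 60 h, while Atp5g2 and Atp5g3 stay within 0.08 of their 12 h D-F means in the second set.

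Assembly factors help to build the complexes without being part of them. Against 12 h D-F, 6 of the 12 were lower at 24 h D-F (14.8% of all genes), 6 at 36 h (21.4%), 9 at 48 h (27.2%), 10 at 60 h (33.6%) and 7 at 72 h (34.5%), and the only one higher at any of these times was Sdhaf1 at 72 h. Of the 12 genes, 8 were lower at 3 or more of the 5 times, a count that was not made for all genes. In the first set 3 fell and 1 rose from 8 h to 24 h A-C, where 15.8% of all genes fell and 23.5% rose.

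Ndufaf6, a factor of early complex I assembly, fell the most in both. It read 9.94, 10.01 and 9.96 at 8 h and 9.60, 9.36 and 9.56 at 24 h A-C (change -0.47, SE 0.09, limma adjusted p = 0.000133). It then read 9.88, 10.02 and 9.75 at 12 h D-F and 9.19, 9.24 and 9.19 at 72 h (change -0.68, SE 0.09, limma adjusted p = 2.89e-07). Neither pair of groups overlapped. The means of Ndufaf6 between these times were 9.59, 9.33, 9.28 and 9.16 at 24 h D-F, 36 h, 48 h and 60 h.

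Ndufaf4, another complex I factor, fell early and partly returned in the first set. It read 10.38, 10.45 and 10.44 at 8 h, 9.94, 9.89 and 9.97 at 12 h A-C, 9.63, 9.62 and 9.75 at 16 h, and 10.26, 10.15 and 10.22 at 24 h A-C. The change to 16 h was -0.76 (SE 0.07, limma adjusted p = 1.94e-09) and to 24 h A-C -0.21 (limma adjusted p = 0.012), and none of these groups overlapped with 8 h. The 24 h call was lost without 24 h A-C B. In the second set Ndufaf4 read 10.81, 10.74 and 10.60 at 12 h D-F and 10.12, 10.23 and 10.06 at 72 h (change -0.58, SE 0.07, limma adjusted p = 3.28e-08), and it was already lower at 24 h D-F (change -0.55).

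Ndufaf7 (-0.38), Ndufaf1 (-0.31), Ndufaf8 (-0.29), Ndufaf2 (-0.19) and Ndufaf3 (-0.19) also fell at 72 h. Ndufaf2 had fallen from 8 h to 24 h A-C as well (change -0.40, limma adjusted p = 2.43e-05). Sdhaf1, which helps to place iron-sulfur clusters in complex II, went the other way. It rose from 9.52, 9.51 and 9.47 at 8 h to 9.94, 9.76 and 9.83 at 24 h A-C (change 0.34, SE 0.06, limma adjusted p = 8.86e-05) and by 0.19 from 12 h D-F to 72 h (limma adjusted p = 0.0103). The 72 h calls of Ndufaf2 and Ndufaf3 were lost without 12 h D-F E, and that of Ndufaf3 also without 72 h A.

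Of 32 assembly factors with other names, 6 rose and 8 fell at 24 h A-C against 8 h, where 23.5% of all genes rose and 15.8% fell. At 72 h against 12 h D-F 5 rose and 17 fell (median -0.17), where 26.2% of all genes rose and 34.5% fell. Ecsit, a complex I assembly protein, had the largest fall (change -1.18, limma adjusted p = 3.56e-12), followed by Cox11 (-0.60), which delivers copper to complex IV, and Foxred1 (-0.59) and Nubpl (-0.51), both complex I factors.

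Pathways around the chain are read here against all genes, of which 23.5% rose and 15.8% fell at 24 h A-C and 26.2% rose and 34.5% fell at 72 h. Of 16 genes of the citric acid cycle and the pyruvate dehydrogenase complex, 0 rose and 3 fell at 24 h A-C (18.8% called, against 39.3% of all genes), and 1 rose and 8 fell at 72 h (56.2% called, against 60.6%; median -0.13). Idh3a, a subunit of the NAD-dependent isocitrate dehydrogenase, fell by 0.76 (limma adjusted p = 2.91e-10), and Suclg2 by 0.60, Pdhb by 0.58 and Pdhx by 0.56. Cs, citrate synthase, was the 1 gene of the list that rose, by 0.35 (limma adjusted p = 9.79e-07), and is named after its value was seen. The list of 22 regulators of mitochondrial biogenesis and of mitochondrial DNA had 1 gene higher and 13 lower at 24 h A-C (median -0.20) and 1 higher and 17 lower at 72 h (median -0.42). Esrrb, a pluripotency factor of the ERR family that is also one of the ES cell markers, fell by 1.23 at 24 h and by 0.74 at 72 h. Pprc1 (-0.59), Tfb2m (-0.52) and Polrmt (-0.44), of which the last is the mitochondrial RNA polymerase, fell at 24 h. At 72 h Mterf1a (-0.92), Nrf1 (-0.72) and Polg2 (-0.71) fell, and Esrrg (0.51), another ERR gene, was the 1 gene that rose. At 24 h A-C against 8 h, 4 of 21 glycolysis and lactate genes rose and 1 fell. At 16 h against 8 h 13 rose and 1 fell, where 25.6% of all genes rose and 17.9% fell. At 72 h against 12 h D-F 5 rose and 7 fell.

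Levels differed between the array sets at equal time labels. At 12 h, 16 of the 94 genes were higher on the D-F arrays than on the A-C arrays and 30 were lower, against 17.2% and 21.7% of all genes (39% called). At 24 h 15 were higher and 26 lower (13.3% and 20.4% of all genes). Of the 94, 11 were higher at both times (11.7%, against 7.25% of all genes), 22 were lower at both (23.4% against 11.1%), and 0 changed sides. The largest differences at 12 h were in Ndufa4l2 (-2.41, SE 0.27, limma adjusted p = 1.86e-07), Cox6b2 (-1.14) and Cox7a1 (-1.08) downward and in Ndufaf4 (0.79) upward, and none of these groups overlapped. Over the same contrast 13 of the 21 glycolysis and lactate genes were lower and 0 higher. Labels give no reason for the second sampling, so array set, culture and time cannot be told apart between the sets. A change from 8 h to 72 h, which spans both sets, was called for 12 genes higher and 33 lower (26.7% and 39.9% of all genes). With the array set as a term the counts were 13 and 24, and 22 genes were called in both fits.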

How the data were processed

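RNA (200 ng per sample) was measured on 30 Affymetrix arrays, and the deposited values are log2 expression levels per probe set. The submitters' processing notes name limma 3.8.3, and the normalization method is not given in the sources used here. Of 45101 probe sets, 64 controls and those with no symbol (9160) or several (932) were left out, which left 34945. The probe set with the highest mean over all arrays stood for each of 18193 genes. This choice favours bright probe sets, and 53 of the 94 genes had more than 1.

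Levels were fitted with limma 3.58.1 in R 4.3.3 over 10 groups, as time label and letter set give them, with Benjamini-Hochberg adjustment over all genes at 0.05. Groups followed the labels, and the 2 array sets followed the hybridisation controls. The members and lists were chosen with earlier results of these data known. Any of the 94 genes could be named. Values for every array were given for the largest called rise and fall of each complex in each of the 2 main comparisons and for isoforms called in opposite directions. Up to 4 genes with the largest called changes could be named from each pathway list in each main comparison. The text names none from the glycolysis list in either, and none at 24 h from the citric acid cycle list or the other assembly factors. Values for every array of the other core genes of complex I and of Ndufb10, Ndufa4, Cox6a2, Cox7a1, Cox7c, Atp5a1, Atp5g3 and Ndufaf4, and values at further times, were added after they were seen.

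Alternatives were a mean over probe sets, probe sets that can bind several transcripts left out, quantile normalisation, an intensity trend, array weights, a replicate block, other groupings and each array left out; leaving arrays out of 5 further comparisons and the split by role were chosen after seeing the data. The scripts were tested on simulated data. The number of arrays, 3 per group, limits the precision. Equal letters could pair arrays: correlations of their deviations were -0.04 to 0 between 8 h and 24 h A-C, so letters were not taken as pairs there, and 0.15 to 0.18 between 36 h and 48 h, so the block was taken into account there. The 12 h D-F and 72 h groups share no letter.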

Additional observations from a re-analysis of the deposited data

Results flagged for a closer look

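The 12 h to 24 h change was measured in both array sets, and the difference between the sets was tested with a limma interaction term. It was called for 10 of the 94 genes (10.6%) and for 19.1% of all genes. Differences below are the D-F change minus the A-C change. The assembly factor Ndufaf4 had a difference of -0.83 (0.28 in A-C, -0.55 in D-F, limma adjusted p = 1.76e-06). Ndufa4l2 had 1.46 (-0.08 and 1.39, limma adjusted p = 0.00847). Among complex IV forms, Cox6a2 had -0.59 (0.47 and -0.12, limma adjusted p = 0.0213) and Cox7b2 had -0.52 (0.34 and -0.18, limma adjusted p = 0.0273). Ndufb1 had -0.58 (0.11 and -0.47, limma adjusted p = 0.0142) and Uqcrq had -0.44 (0.26 and -0.17, limma adjusted p = 0.00644). Among other assembly factors, Sdhaf2 had -0.47 (0.29 and -0.18, limma adjusted p = 0.000715), Sdhaf1 had -0.28 (0.31 and 0.03, limma adjusted p = 0.0259) and Ndufaf1 had -0.24 (0.00 and -0.24, limma adjusted p = 0.0211). Atp5d had 0.21 (-0.12 and 0.09, limma adjusted p = 0.0275). The arrays behind each change are 3 per group, and the cause of the differences was not tested.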

How the results depend on the processing

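From 8 h to 24 h A-C the count of 28 called genes ran from 9 to 39 over the alternatives and from 19 to 21 when 1 array was left out; the 9 came from pooling the arrays of a time over the sets, and 5 of the 28 were called in every setting run. From 12 h D-F to 72 h the count of 46 ran from 34 to 52 and from 41 to 46, and 20 of the 46 were called in every setting run.

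From 12 h D-F to 24 h D-F the count of 19 became 11 with probe sets that can bind several transcripts left out, 11 with the 2 groups fitted alone, 11 over subunits only, and 11 to 18 without 1 array (11 without 12 h D-F E). From 24 h D-F to 36 h the count of 7 became 4 with those probe sets left out, 11 with an intensity trend, 11 with array weights, 0 with the groups fitted alone, and 2 to 6 without 1 array (2 without 24 h D-F E or 36 h C, 3 without 24 h D-F D, 4 without 36 h A). From 36 h to 48 h the count of 8 ran from 5 (without 36 h B) to 16 (without 36 h C). Without 1 array the counts were 34 to 42 for the set difference at 12 h, 34 to 39 at 24 h, 22 to 27 at 16 h against 8 h (31 with all), and 25 to 31, 34 to 39 and 43 to 49 at 36, 48 and 60 h against 12 h D-F.

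Changes reversed as follows: with the mean of all probe sets, Ndufs4 (-0.015), Atp5g1 (0.068) and Atp5g2 (-0.018) at 24 h and Atp5c1 (-0.11) at 72 h; with probe sets that can bind several transcripts left out, Atp5g1 (0.37) at 24 h and Atp5c1 (-0.36) and Atp5g1 (0.21) at 72 h; with arrays of a time pooled, Cox6a2 (-0.008) at 24 h and Cox6b2 (-0.049) at 72 h.

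With the replicate letter as a block 28 and 47 genes were called in the 2 main comparisons (28 and 45 of them also without it), and the fall of Ndufa4l2 from 36 h to 48 h had limma adjusted p = 1.36e-05. The median change of the 94 genes at 72 h was -0.03, moved to -0.10 where a gene's probe sets were averaged, and was -0.06 with arrays of a time pooled. Levels near the lower quartile limit what dim genes such as Ndufb4 can show.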
